A study of Mus musculus with 40 samples.

Results

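Glucuronidation genes were followed in the livers of mice given 2,3,7,8-tetrachlorodibenzo-p-dioxin (hereafter TCDD), a persistent ligand of the aryl hydrocarbon receptor (AhR). The set held 10 genes chosen by symbol, of 55359 gene identifiers in the count files. These were 9 UDP-glucuronosyltransferase (UGT) genes, Ugt1a1, Ugt1a6a, Ugt1a6b, Ugt1a9, Ugt2b1, Ugt2b5, Ugt2b34, Ugt2b35 and Ugt2b36, and Ugdh. Each symbol matched 1 Ensembl identifier, and 10 of 10 passed the filter on low counts among 15373 genes tested. Male C57BL/6 mice received TCDD at a low dose (0.03, 0.1 or 0.3 μg/kg), a middle dose (1 or 3 μg/kg) or a high dose (10 or 30 μg/kg), or the sesame oil vehicle alone, by oral gavage every 4 days for 28 days, from postnatal day 30 to day 58 (7 administrations). Whole liver RNA was sequenced from 5 mice in each of the 8 groups, giving 40 libraries.

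UGT enzymes sit in the membrane of the endoplasmic reticulum and move glucuronic acid from UDP-glucuronic acid onto bilirubin, steroids, thyroid hormone, drugs and other lipophilic compounds, which makes them soluble enough for bile or urine. Ugdh encodes UDP-glucose dehydrogenase, which makes UDP-glucuronic acid in the cytosol. The Ugt1a transcripts arise from a single locus, where each gene has its own first exon spliced to a set of exons that all of them share, whereas each Ugt2b gene is a separate gene of a cluster. Ugt1a1 is the enzyme that conjugates bilirubin, and Ugt1a6 and Ugt1a9 conjugate mainly phenols.

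The libraries held between 15.5 M and 21.0 M counts in genes (M, 1e6). All 6 AhR target genes examined were higher than vehicle at 3, 10 and 30 μg/kg, with a log2 fold change of 11.75 ± 0.27 (SE) for Cyp1a1 at 30 μg/kg (adjusted p = 6.83e-30, edgeR quasi-likelihood test, Benjamini-Hochberg). Replicate 1 at 30 μg/kg stood apart from its group, with a score of 81.7 on the first principal component against 129 to 147 for the other 4 mice. Replicate 2 at 10 μg/kg held counts of the kidney genes Umod (1302), Slc12a1 (657) and Kap (1652), which reached at most 13 in any other library. Replicate 5 at 0.1 μg/kg held counts of the pancreatic genes Prss2 (314) and Cpa1 (349). The number of glucuronidation genes called was 7 at 30 μg/kg with or without replicate 1, 5 at 10 μg/kg with or without replicate 2, and 1 at 0.1 μg/kg with or without replicate 5.

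Of the 10 genes, 5 were called higher than vehicle at some dose, 3 were called lower and 2 were not called. Ugt1a9 rose from 0.1 μg/kg and Ugdh and Ugt2b35 from 0.3 μg/kg, Ugt1a1 rose at 1 and 3 μg/kg, and Ugt1a6a rose at 30 μg/kg. Ugt2b1, Ugt2b5 and Ugt2b36 fell at 10 and 30 μg/kg. Ugt1a6b and Ugt2b34 were not called at any dose, although Ugt1a6b at 30 μg/kg was called lower with title run as a covariate. A gene was called where the edgeR quasi-likelihood test against vehicle gave a p under 0.05 after Benjamini-Hochberg correction over all genes tested and a fold change of at least 1.5 either way. By that rule 0 of the 10 genes were called at 0.03 μg/kg, where 0.0195% of all genes tested were called and 393 genes had an unadjusted p under 0.05. DESeq2 called 1 of the 10 at that dose, Ugt1a9. The number called was 1 of 10 at 0.1 μg/kg (0.0976% of all genes), 3 of 10 at 0.3 μg/kg (0.468%), 4 of 10 at 1 μg/kg (2.78%) and 4 of 10 at 3 μg/kg (6.75%), all of them higher than vehicle. At 10 μg/kg 5 of 10 were called, 2 higher and 3 lower, against 21.8% of all genes (13.6% higher, 8.13% lower). At 30 μg/kg 7 of 10 were called, 4 higher and 3 lower, against 42.1% of all genes (23.2% higher, 18.9% lower). Either title run alone also gave 7 of 10 at that dose, 3 higher and 4 lower.

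The median log2 fold change of the 10 genes was 0.42 at 1 μg/kg, 0.24 at 3 μg/kg, 0.08 at 10 μg/kg and -0.13 at 30 μg/kg, where the median of all genes tested lay between 0.00 and 0.03. Scaling by library totals alone, without TMM factors, raised the median of all genes to 0.22 at 10 μg/kg and to 0.52 at 30 μg/kg. With that scaling 4 genes were called higher at 10 μg/kg with 1 lower, and 4 were called higher at 30 μg/kg with 2 lower. Of the 15373 genes tested, 3736 were then called at 10 μg/kg and 7961 at 30 μg/kg. Among all genes called, the share that was higher went from 62.7% to 79.8% at 10 μg/kg and from 55.1% to 80.4% at 30 μg/kg. Ugt1a1 at 30 μg/kg was the only 1 of the 10 genes whose direction at that dose turned with this scaling, from -0.31 to 0.18, and neither value was called.

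**Figure D1:**
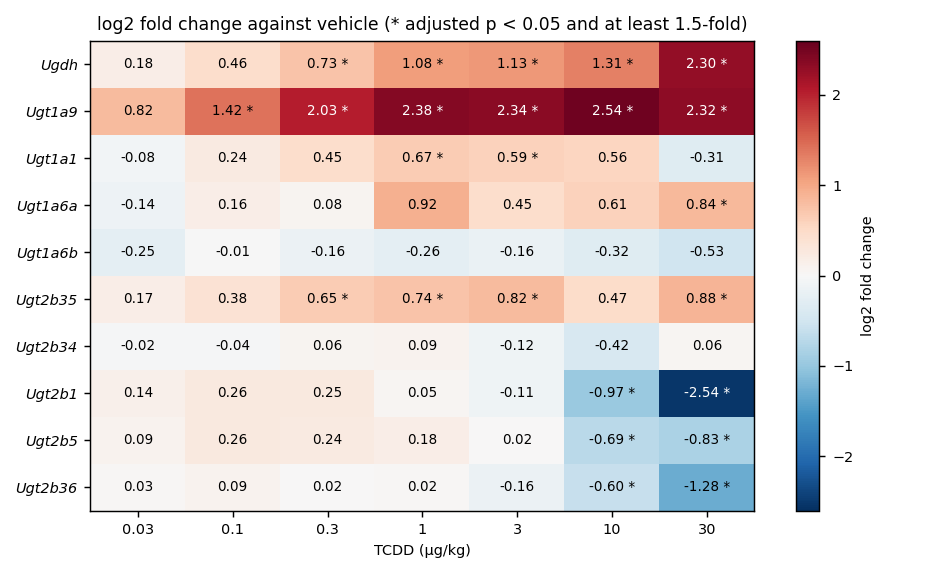
Log2 fold change of each gene against vehicle at each TCDD dose in μg/kg, with an asterisk on each gene called by edgeR (5 mice a group). Red cells of Ugdh, Ugt1a9 and Ugt2b35 begin at low doses, and blue cells of Ugt2b1, Ugt2b5 and Ugt2b36 carry an asterisk at 10 and 30 μg/kg, with the lowest value at -2.54 for Ugt2b1.

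The promoters of the genes that moved most are shown so that the genes that rose and fell can be read side by side. The sequences are those of RefSeq on GRCm38.p6, from 250 bases before to 50 bases after the start of the gene, written 5′ to 3′ on the strand of the gene. Capitals mark matches on either strand to GCGTG, the core of the dioxin response element bound by AhR with ARNT, and to TGACNNNGC, the core of the antioxidant response element.
Ugdh (chr5:65435793-65436092, minus strand): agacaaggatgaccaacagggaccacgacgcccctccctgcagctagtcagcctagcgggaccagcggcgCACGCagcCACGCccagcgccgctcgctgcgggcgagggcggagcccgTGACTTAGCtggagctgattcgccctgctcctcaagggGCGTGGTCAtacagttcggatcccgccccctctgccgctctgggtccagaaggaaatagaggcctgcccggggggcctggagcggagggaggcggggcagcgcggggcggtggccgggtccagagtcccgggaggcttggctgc
Ugt1a9 (chr1:88070529-88070828, plus strand): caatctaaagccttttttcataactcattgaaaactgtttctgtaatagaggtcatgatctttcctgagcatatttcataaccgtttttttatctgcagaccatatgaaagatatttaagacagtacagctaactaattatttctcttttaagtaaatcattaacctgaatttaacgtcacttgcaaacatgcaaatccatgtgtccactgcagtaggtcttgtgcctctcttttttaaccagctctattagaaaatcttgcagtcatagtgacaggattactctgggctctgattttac
Ugt2b1 (chr5:86926454-86926753, minus strand): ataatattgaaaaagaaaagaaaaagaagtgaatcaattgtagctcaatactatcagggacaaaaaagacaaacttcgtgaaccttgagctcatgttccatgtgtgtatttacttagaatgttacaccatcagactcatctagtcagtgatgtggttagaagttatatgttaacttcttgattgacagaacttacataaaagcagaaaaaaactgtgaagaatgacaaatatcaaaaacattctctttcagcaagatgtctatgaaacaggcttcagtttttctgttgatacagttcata
Ugt2b36 (chr5:87092506-87092805, minus strand): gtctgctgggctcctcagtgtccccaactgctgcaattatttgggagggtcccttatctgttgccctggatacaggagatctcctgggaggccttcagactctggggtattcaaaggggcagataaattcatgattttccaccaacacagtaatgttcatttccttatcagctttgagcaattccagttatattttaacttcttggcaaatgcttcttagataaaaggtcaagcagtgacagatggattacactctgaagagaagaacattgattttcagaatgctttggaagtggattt
A sequence was found for 9 of the 10 genes. Ugdh was the only 1 of the 9 to hold either motif in this window. Its GCGTG matches began 180, 172 and 94 bases before the start, and its TGACNNNGC matches began 132 and 94 bases before it, so that the matches at 94 overlapped. Of 32851 mouse promoter windows of the same length, 32.4% held GCGTG and 12.4% held TGACNNNGC. The match describes letters in the window only. The windows of Ugt2b5 and Ugt2b36 shared 197 of 321 aligned positions (61.4%), and those of Ugt2b5 and the neighbouring gene Ugt2b38 shared 261 of 310 (84.2%).

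Ugdh, which supplies the sugar donor of glucuronidation, rose from 0.3 μg/kg up and had its highest mean at the highest dose. Its level in counts per 1e6 library counts, scaled by TMM factors (CPM), was 167, 165, 187, 175 and 156 in the 5 vehicle mice and 589, 809, 1000.4, 952 and 824 in the 5 mice at 30 μg/kg. No mouse at 30 μg/kg came near the vehicle range, and replicate 1 was the lowest of its group. The mean went from 170 ± 11.8 CPM (SD, n = 5) to 835 ± 160 CPM. Ugdh was induced 1.66-fold at 0.3 μg/kg (log2 fold change 0.73 ± 0.12 SE, adjusted p = 2.99e-04, edgeR quasi-likelihood test, Benjamini-Hochberg) and 4.91-fold at 30 μg/kg (2.30 ± 0.12, adjusted p = 1.04e-17). Between these doses it stood at 2.12-fold at 1 μg/kg, 2.19-fold at 3 μg/kg and 2.48-fold at 10 μg/kg. The step from 10 to 30 μg/kg was itself called, at 1.98-fold (adjusted p = 8.26e-08), and no other step between neighbouring doses was. In whole liver RNA, a change in the number of cells of a type and a change in RNA per cell cannot be told apart, and this holds for each gene described here.

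Ugt1a9, whose product conjugates phenols, responded at the lowest dose of any of the 10 genes and then levelled off. The vehicle mice had 40.0, 53.4, 35.4, 35.3 and 32.3 CPM. At 0.1 μg/kg the mice had 85.4, 74.5, 124, 132 and 110 CPM, all above the vehicle mice. At 1 μg/kg they had 254, 195, 187, 182 and 209 CPM, and at 30 μg/kg 225, 115, 187, 251 and 207 CPM. The last 2 groups overlapped. Ugt1a9 was induced 2.67-fold at 0.1 μg/kg (log2 fold change 1.42 ± 0.18 SE, adjusted p = 2.38e-06, edgeR), 4.09-fold at 0.3 μg/kg, 5.22-fold at 1 μg/kg, 5.07-fold at 3 μg/kg, 5.81-fold at 10 μg/kg and 5.01-fold at 30 μg/kg (2.32 ± 0.18, adjusted p = 1.31e-13). At 0.03 μg/kg the log2 fold change was 0.82 ± 0.17 with an adjusted p of 0.0917 by edgeR, and all 5 mice lay above all vehicle mice. No step between neighbouring doses was called for Ugt1a9, so the order of its levels from 1 to 30 μg/kg was not resolved.

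**Figure D2:**
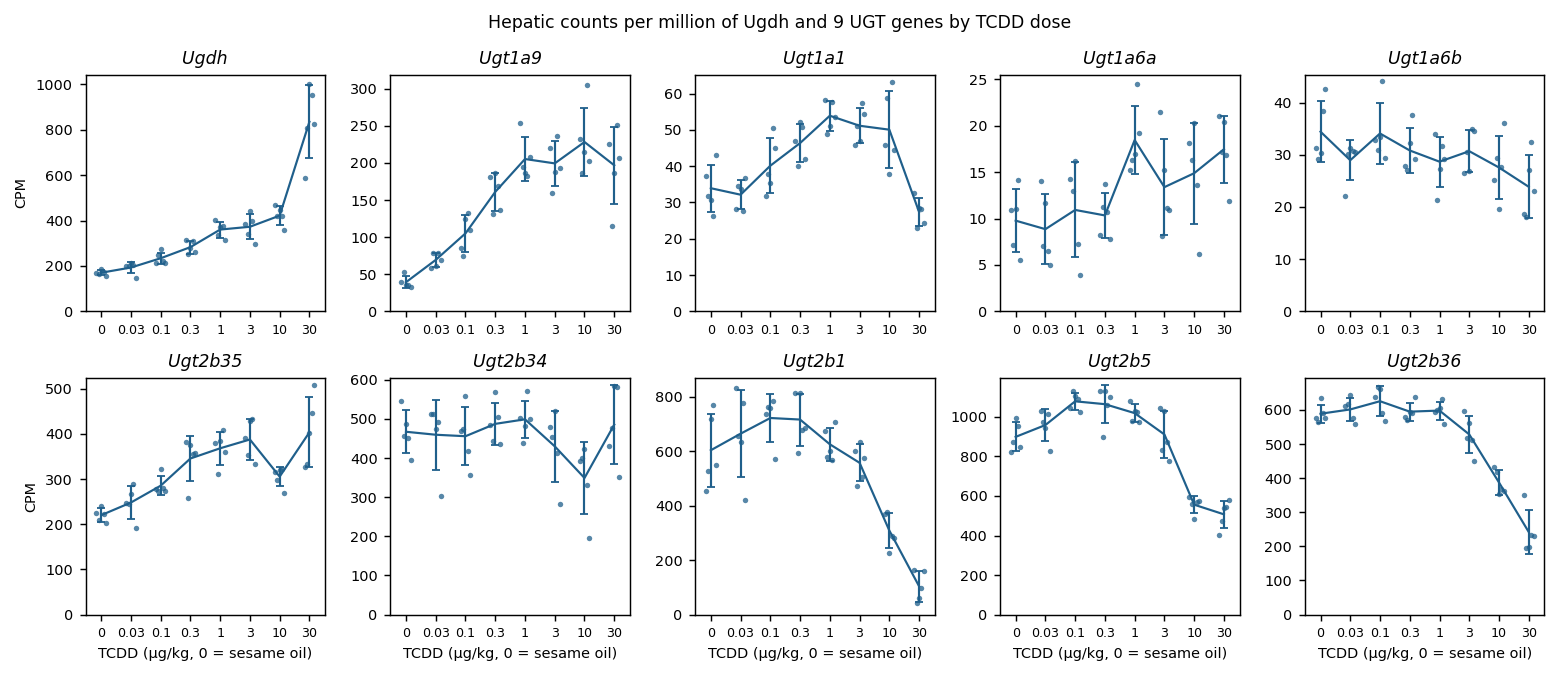
Hepatic level of each gene in CPM, scaled by TMM factors, by TCDD dose in μg/kg (0 is the sesame oil vehicle). Points are mice (5 a group), and lines join group means with bars of 1 SD. Ugdh climbs from 170 to 835 CPM, Ugt1a9 reaches about its final level at 1 μg/kg, and Ugt2b1 drops from 603 to 104 CPM.

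Ugt1a1 rose over the middle doses and then returned. The vehicle mice had 37.4, 31.9, 30.7, 26.4 and 43.2 CPM, the mice at 1 μg/kg had 58.3, 48.8, 51.0, 57.7 and 53.7 CPM, and the mice at 30 μg/kg had 32.7, 22.9, 28.6, 28.3 and 24.4 CPM. All mice at 1 μg/kg lay above all vehicle mice, while those at 30 μg/kg overlapped them. Ugt1a1 was induced 1.59-fold at 1 μg/kg (log2 fold change 0.67 ± 0.13 SE, adjusted p = 0.00157, edgeR) and 1.51-fold at 3 μg/kg (0.59 ± 0.13, adjusted p = 0.00275). The value at 10 μg/kg was 0.56 ± 0.13 (adjusted p = 0.00125), short of the fold threshold, and the value at 30 μg/kg was -0.31 ± 0.13. The step from 10 to 30 μg/kg was called lower, 1.83-fold (-0.87 ± 0.13, adjusted p = 3.98e-06).

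The unstranded counts left out reads over the part of Ugt1a1 that an antisense gene also covers. In the GENCODE M21 annotation an antisense gene, Gm20528, has 1062 exon bases, of which 528 lie in the Ugt1a1 first exon, 140 in the Ugt1a10 first exon and 394 in exons that all 9 Ugt1a genes share. Reads over such bases belong to more than 1 gene when strand is ignored, and were left uncounted. The unstranded column held 29440 Ugt1a1 reads over the 40 libraries, whereas the columns for the 2 strand settings summed held 206982. For none of the other 9 genes did that sum exceed the unstranded count by more than 0.0744%. Whether the added reads came from Ugt1a1 or from the antisense gene cannot be told apart, and the annotation used for the counts is not given in the sources used here. With the summed columns, chosen after seeing the data, Ugt1a1 was 210, 237, 199, 199 and 255 CPM in vehicle mice and 403, 360, 335, 442 and 423 CPM at 1 μg/kg. Its log2 fold changes on that scale were 0.57 ± 0.14 at 0.3 μg/kg (1.49-fold), 0.84 ± 0.14 at 1 μg/kg, 0.84 ± 0.14 at 3 μg/kg, 0.65 ± 0.14 at 10 μg/kg and -0.31 ± 0.14 at 30 μg/kg, with the calls at 1, 3 and 10 μg/kg. The call at 10 μg/kg was thus gained, and the fall from 10 to 30 μg/kg was called at -0.95 ± 0.14.

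The same columns gave a reading of the exons that the Ugt1a genes share, which the unstranded counts leave out. Gm20528 had 0 unstranded counts in the 40 libraries and 803492 with the strand settings summed. The part of these over the first exons of Ugt1a1 and Ugt1a10 was taken as equal to what the strand settings added to those genes and was subtracted, which left between 7812 and 24373 reads a library over the shared exons. The libraries keep no strand, so transcripts of the antisense gene itself cannot be told apart from Ugt1a transcripts in this reading. The vehicle mice had between 445 and 609 CPM over the shared exons, with a mean of 551 ± 63.7 (SD, n = 5). The mean was 589 ± 90.9 CPM at 0.03 μg/kg, 724 ± 49.0 at 0.1 μg/kg, 848 ± 49.9 at 0.3 μg/kg, 1085 ± 74.9 at 1 μg/kg, 1202 ± 154 at 3 μg/kg, 1059 ± 79.7 at 10 μg/kg and 921 ± 87.1 at 30 μg/kg. All 5 mice of every dose from 0.1 μg/kg up lay above all vehicle mice. Each of those 6 doses reached the smallest p that 5 against 5 allows in a 2-sided exact permutation test (p = 0.00794, adjusted p = 0.00926 over 7 doses), whereas 0.03 μg/kg did not (p = 0.46). With TMM factors the fold of means was highest at 3 μg/kg, at 2.18-fold, and was 1.67-fold at 30 μg/kg. With library totals alone the mice had 1061 to 1362 CPM at 3 μg/kg and 1109 to 1248 CPM at 30 μg/kg. These 2 doses overlapped on that scale, so the lower level at 30 μg/kg depended on the scaling.

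**Figure D3:**
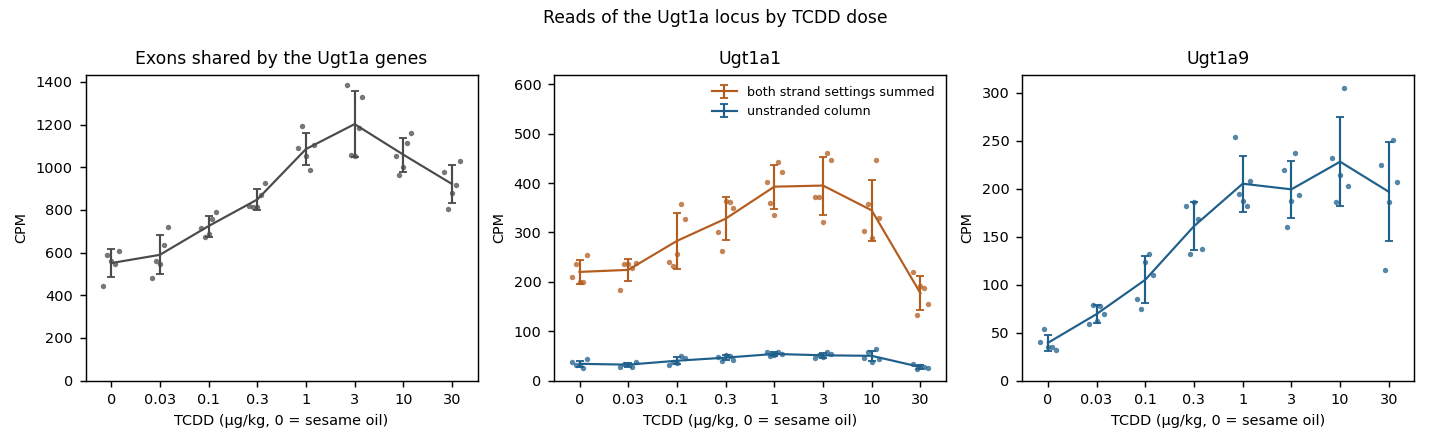
Reads over the exons that the Ugt1a genes share, reads of Ugt1a1 and reads of Ugt1a9, in CPM by TCDD dose in μg/kg. Points are mice (5 a group) and lines join means with bars of 1 SD. Scaled by TMM factors, the shared exons rise from 551 to 1202 CPM at 3 μg/kg and stand at 921 CPM at 30 μg/kg. The summed strand settings place Ugt1a1 several times above its unstranded counts.

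Ugt1a6a and Ugt1a6b are near copies whose products conjugate simple phenols, and Ugt1a6 is a known AhR target. Their counts were the least complete of the set. In the annotation, 859 bases of the main Ugt1a6a first exon (chr1:88138473-88139331, GRCm38) are also an exon of Ugt1a7c, and of the 2142 exon bases that Ugt1a6a has to itself, 222 lie at its first exons and 1920 lie between the shared exons, in a transcript that retains an intron. Of the windows of 100 bases in its first exons, 94.3% occurred exactly in a transcript of Ugt1a6b or Ugt1a7c. For Ugt1a6b this share was 30.4%, and for Ugt1a9 it was 0%. The Ugt1a6a count therefore left out most of its own coding first exon. Reads over the 1920 bases cannot be assigned to Ugt1a6a alone, since unspliced transcripts of any Ugt1a gene that reach the shared exons would cover them.

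With those limits, the Ugt1a6a count was 10.9, 7.15, 11.1, 14.2 and 5.59 CPM in vehicle mice and 21.0, 17.1, 20.4, 16.9 and 11.9 CPM at 30 μg/kg. The lowest mouse at 30 μg/kg overlapped the highest vehicle mouse. It was called at 30 μg/kg alone, 1.79-fold higher (log2 fold change 0.84 ± 0.31 SE, adjusted p = 0.0211, edgeR). That call was lost without vehicle replicate 2 (0.74) and without vehicle replicate 5 (0.69), and in title run 2 alone (0.71). At 1 μg/kg the log2 fold change was 0.92 ± 0.31 (adjusted p = 0.0977), with the 5 mice at 15.3, 16.3, 17.0, 24.5 and 19.2 CPM, all above vehicle. Ugt1a6b had 31.4, 29.2, 30.4, 38.5 and 42.6 CPM in vehicle mice and 18.6, 18.1, 27.2, 32.4 and 23.1 CPM at 30 μg/kg. Its log2 fold change of -0.53 ± 0.16 at 30 μg/kg had an adjusted p of 0.00438 by edgeR, with a fold of 1.44, under the threshold of 1.5. The value passed the threshold with title run as a covariate (-0.59) and within title run 1 (-0.74) and title run 2 (-0.59).

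Ratios within a mouse do not depend on how libraries are scaled. The log2 ratio of the Ugt1a6a count, with the limits given above, to that of each other gene was compared between vehicle and 3 or 30 μg/kg. This took 18 exact 2-sided permutation tests, with Benjamini-Hochberg adjustment. Against Ugt1a9 the ratio fell by 1.90 at 3 μg/kg and by 1.42 at 30 μg/kg (adjusted p = 0.0238 and 0.0317, exact permutation), and 5 of 5 mice lay below the vehicle mean at each dose. Against Ugt1a6b the ratio rose by 1.43 at 30 μg/kg, from -1.87 ± 0.64 to -0.44 ± 0.51 (SD, n = 5, adjusted p = 0.0238, exact permutation). Against Ugdh it fell by 1.39, and against Ugt2b1, Ugt2b36 and Ugt2b5 it rose by 3.59, 2.20 and 1.72 (each adjusted p = 0.0238 by exact permutation, 5 of 5 mice past the vehicle mean). It also rose against Ugt1a1 by 1.18 and against Ugt2b34 by 0.85 (each adjusted p = 0.0317, exact permutation). At 30 μg/kg 8 of the 9 ratios passed, the exception being Ugt2b35 (0.03, adjusted p = 0.94, exact permutation). Those to Ugt1a1, Ugt1a9 and Ugt2b34 had an unadjusted p of 0.0159 by exact permutation, above the smallest possible of 0.00794. They did not pass when most single mice were left out. Fewer rearrangements then exist for every ratio, yet those to Ugt1a6b, Ugdh, Ugt2b1, Ugt2b5 and Ugt2b36 still passed. At 3 μg/kg 1 of the 9 passed, that to Ugt1a9. All 9 ratios at a dose share the Ugt1a6a count, so they are not 9 separate results. The share of all genes whose ratio to Ugt1a6a would pass was not tested.

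Among the Ugt2b genes, whose products conjugate steroids, bile acids and fatty acids, Ugt2b35 rose while its neighbours in the cluster fell or stayed within their spread. The vehicle mice had 224, 210, 241, 223 and 202 CPM and the mice at 0.3 μg/kg 383, 258, 374, 355 and 357 CPM. The mice at 10 μg/kg had 316, 299, 319, 323 and 270 CPM, and those at 30 μg/kg 327, 333, 402, 447 and 509 CPM. All mice of these groups lay above all vehicle mice. Ugt2b35 was induced 1.57-fold at 0.3 μg/kg (log2 fold change 0.65 ± 0.12 SE, adjusted p = 0.00114, edgeR), 1.67-fold at 1 μg/kg, 1.76-fold at 3 μg/kg and 1.83-fold at 30 μg/kg (0.88 ± 0.12, adjusted p = 4.62e-08). At 10 μg/kg the fold was 1.39 (adjusted p = 0.00156), under the threshold. No step between neighbouring doses was called.

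Ugt2b34 was not called at any dose. Its vehicle mice had 545, 458, 486, 452 and 396 CPM, and its mice at 30 μg/kg had 431, 477, 585, 582 and 351 CPM, so the treated mice spanned the vehicle range. The log2 fold change was -0.42 ± 0.17 at 10 μg/kg (adjusted p = 0.0542, edgeR) and 0.06 ± 0.17 at 30 μg/kg (adjusted p = 0.81).

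Ugt2b1 fell most. The vehicle mice had 452, 527, 718, 769 and 549 CPM, the mice at 10 μg/kg 369, 378, 226, 287 and 282 CPM, and the mice at 30 μg/kg 163, 40.6, 59.2, 96.0 and 160.5 CPM. The groups did not overlap. Up to 3 μg/kg its log2 fold change stayed between -0.11 and 0.26, none called. Ugt2b1 was repressed 1.96-fold at 10 μg/kg (-0.97 ± 0.23 SE, adjusted p = 0.00117, edgeR) and 5.81-fold at 30 μg/kg (-2.54 ± 0.24, adjusted p = 2.42e-11). The steps from 3 to 10 μg/kg (-0.85 ± 0.23, adjusted p = 0.014) and from 10 to 30 μg/kg (-1.57 ± 0.23, adjusted p = 2.25e-06) were both called by edgeR.

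Ugt2b36 had 577, 566, 634, 591 and 577 CPM in vehicle mice and 351, 196, 199, 234 and 230 CPM at 30 μg/kg. Replicate 1 was the highest of the treated mice and still lay below all vehicle mice. Ugt2b36 was repressed 1.52-fold at 10 μg/kg (-0.60 ± 0.11 SE, adjusted p = 2.22e-05, edgeR) and 2.43-fold at 30 μg/kg (-1.28 ± 0.11, adjusted p = 8.33e-13). The value at 10 μg/kg lay so near the fold threshold that several other settings, given in the closing section, fell short of it. Its step from 10 to 30 μg/kg was called (-0.68 ± 0.11).

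Ugt2b5 had the highest mean CPM of the 10 genes in vehicle mice. It had 824, 874, 996, 954 and 849 CPM in vehicle mice, 595, 561, 482, 567 and 575 CPM at 10 μg/kg and 403, 471, 538, 546 and 578 CPM at 30 μg/kg. Every mouse at 10 and 30 μg/kg lay below every vehicle mouse, and these 2 doses overlapped each other. It was repressed 1.62-fold at 10 μg/kg (-0.69 ± 0.10 SE, adjusted p = 5.74e-07, edgeR) and 1.77-fold at 30 μg/kg (-0.83 ± 0.10, adjusted p = 3.03e-09). For Ugt2b5 the step that was called was from 3 to 10 μg/kg (-0.71 ± 0.10, adjusted p = 3.18e-06, edgeR), whereas for Ugt2b36 it was the next. Ugt2b36 also fell from 3 to 10 μg/kg (-0.45 ± 0.11, adjusted p = 0.00459, edgeR), but its fold of 1.36 was under the threshold. A difference between the 2 genes in these steps was not tested. With scaling by library totals alone Ugt2b5 missed the fold threshold at both doses (-0.49 and -0.33). Of the windows of 100 bases in its transcripts, 24.7% occurred exactly in Ugt2b37 or Ugt2b38.

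Over neighbouring doses, 2 of the 10 genes were called from 3 to 10 μg/kg (Ugt2b1 and Ugt2b5, against 6.77% of all genes) and 4 of 10 from 10 to 30 μg/kg (Ugdh higher and Ugt1a1, Ugt2b1 and Ugt2b36 lower, against 21.1%). With library totals alone 5 were called from 10 to 30 μg/kg, 3 higher and 2 lower. At the other 5 steps 0 of 10 were called by edgeR, against 0.0195%, 0.039%, 0.0455%, 0.241% and 0.0585% of all genes from the lowest step up, and 393 to 1011 genes had an unadjusted p under 0.05, and DESeq2 called 1, Ugt1a9 from vehicle to 0.03 μg/kg. At 30 μg/kg the mice did not overlap vehicle for 6 of the 10 genes, against 37.6% of all genes.

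Levels were compared between genes only per kilobase of exon that no other gene covers, and only for the 7 genes whose reads were not shared with another gene's first exon. All such annotated bases were counted, from 879 for Ugt1a9 to 6594 for Ugdh, whether or not liver transcripts use them. The order of the genes depends on these lengths. In vehicle mice Ugt2b5 stood highest at 484 ± 39.3 CPM per kb (SD, n = 5), followed by Ugt2b36 at 286 ± 13.1, Ugt2b1 at 234 ± 52.2, Ugt2b34 at 108 ± 12.6, Ugt2b35 at 65.6 ± 4.58, Ugt1a9 at 44.7 ± 9.52 and Ugdh at 25.8 ± 1.79. At 30 μg/kg Ugt2b5 was still highest, at 273 ± 37.7 CPM per kb, and Ugt1a9 came next at 224 ± 58.7. Ugdh at 127 ± 24.3, Ugt2b35 at 120 ± 23.0, Ugt2b36 at 118 ± 30.7 and Ugt2b34 at 113 ± 23.3 lay within 1 SD of each other, and Ugt2b1 was lowest at 40.4 ± 22.0.

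Among 11034 genes compared over the 40 mice by Spearman's rho of log2 CPM, the genes most like Ugdh were Htatip2 (0.957), Cd36 (0.951) and Fam171a1 (0.949). Those most like Ugt1a9 were Nptx1 (0.916), Mroh2a (0.902) and Them7 (0.898). The genes most like Ugt2b1 were Slc15a5 (0.900), C6 (0.892) and C9 (0.886). For Ugt2b36 the list held 1700028E10Rik (0.849), Sult2a8 (0.849), a sulfotransferase, and Rad54l2 (0.847), and for Ugt2b35 it held Pparg (0.872), Osbpl3 (0.803) and Fitm2 (0.780). For Ugt1a1 the nearest gene was the cytochrome P450 gene Cyp2c29 (0.857), and for Ugt1a6b no gene exceeded 0.697 (Pdxdc1). These values describe shared dose patterns, since the 40 mice share 8 doses.

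The other UGT genes, which complete the family, were mostly lower at 30 μg/kg. Of 13 listed, 9 could be tested, and Ugt1a8, Ugt2a1, Ugt2a2 and Ugt8a reached at most 19, 0, 1 and 12 counts in any library. At 30 μg/kg 8 of the 9 were called by edgeR, 1 higher and 7 lower, against 42.1% of all genes (23.2% higher, 18.9% lower). The median log2 fold change of the 9 was -2.52. Ugt3a1, which uses N-acetylglucosamine in place of glucuronic acid, was at -3.82 ± 0.29, and Ugt2a3 was at -2.52 ± 0.27. Ugt1a5 was at -2.54 ± 0.33, Ugt1a10 at -3.22 ± 0.77, Ugt3a2 at -1.28 ± 0.15, Ugt2b37 at -1.97 ± 0.73 and Ugt2b38 at -4.86 ± 0.93 (SE). Ugt1a7c rose, to 4.82 ± 0.53, from 0.455 CPM in vehicle to 13.2 CPM, and its exons overlap those of Ugt1a6a as given above. At 10 μg/kg 4 of the 9 were called, against 21.8% of all genes. Among these was Ugt1a2 (2.20), which stood at 6.37 CPM in the library with kidney genes and between 0.389 and 1.04 CPM in the other 4 mice of that dose. The part of kidney RNA in that value was not tested.

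Genes that supply UDP-glucuronic acid or use it elsewhere were called in 3 of 7 cases at 30 μg/kg, 2 higher and 1 lower, with a median log2 fold change of 0.41, against 42.1% of all genes called. Slc35d1, which carries UDP-glucuronic acid into the endoplasmic reticulum, rose from 1 μg/kg (0.81) to 30 μg/kg (1.75 ± 0.10, adjusted p = 9.17e-17, edgeR). Akr1a1, which reduces glucuronate toward ascorbate, rose from 3 μg/kg and stood at 0.69 ± 0.11 at 30 μg/kg. Rgn, the gluconolactonase of the same route, fell to -3.05 ± 0.39 at 30 μg/kg by edgeR. DESeq2 called 2 of the 7 genes at that dose, 2 higher and 0 lower, but it gave no p-value for Rgn. Ugp2, which makes UDP-glucose for Ugdh, fell at 3 μg/kg (-0.78) and 10 μg/kg (-1.17), and its value at 30 μg/kg was 0.41 ± 0.19 (adjusted p = 0.0599). Gulo was called at 10 μg/kg alone (0.77). With library totals alone 6 of the 7 were called at 30 μg/kg, 5 of them higher, where 7961 of the 15373 genes tested were called.

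Of the 3 genes for glucuronide cleavage and lumenal nucleotides, 3 were called at 30 μg/kg, against 42.1% of all genes. Entpd5, which hydrolyses the UDP released in the endoplasmic reticulum, rose from 0.3 μg/kg (0.63) and reached 1.77 ± 0.14 at 30 μg/kg. Gusb, the β-glucuronidase that removes glucuronic acid, rose at 30 μg/kg (0.81 ± 0.13), and Ces1e, the esterase that retains it in the endoplasmic reticulum, fell at 10 μg/kg (-1.08) and 30 μg/kg (-3.25 ± 0.34). Of 4 exporters of conjugates, 2 were called at 30 μg/kg, near the share of all genes (42.1%). Abcc4, which exports conjugates to blood, rose to 6.51 ± 0.40 and Abcg2, an exporter to bile, fell to -1.02 ± 0.11. Abcc3, also an exporter to blood, was called at 1 μg/kg (0.89) and 3 μg/kg (0.84) and not at 30 μg/kg (0.54). Abcc2, the main exporter of bilirubin glucuronides to bile, was not called at any dose and stood at 0.06 ± 0.13 at 30 μg/kg. With library totals alone the 2 exporters called at 30 μg/kg were both higher.

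**Figure D4:**
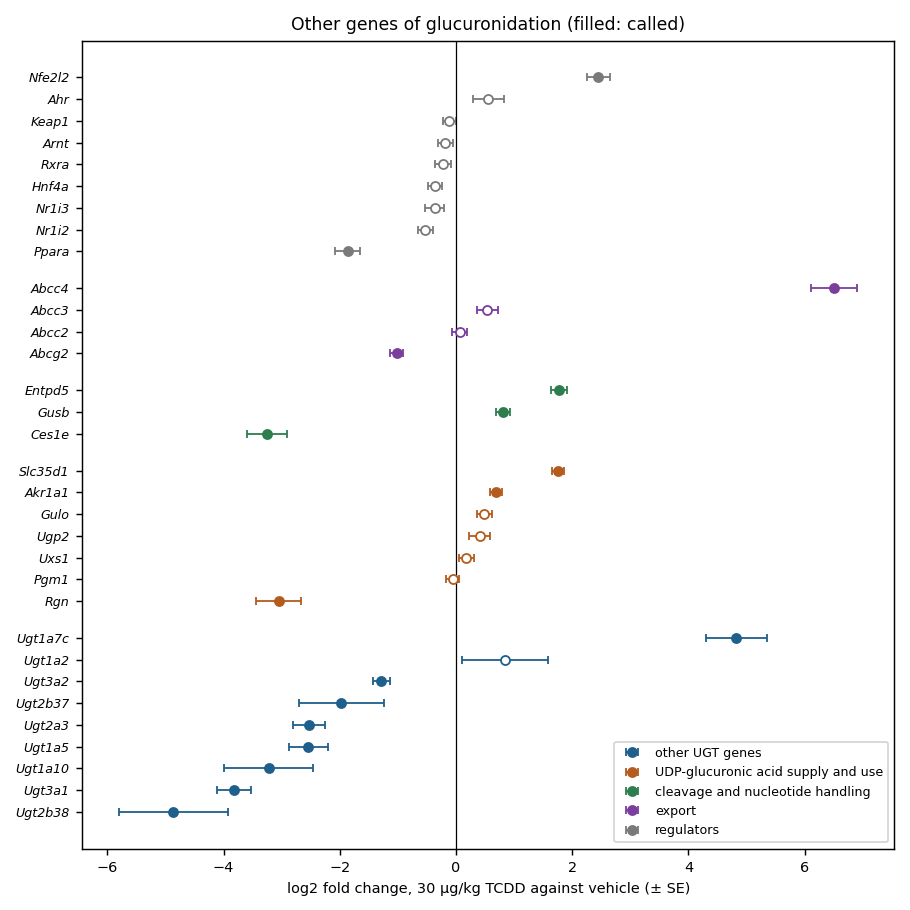
Log2 fold change (± SE) at 30 μg/kg TCDD against vehicle for the other genes of glucuronidation, by list. Filled points were called by edgeR, with an adjusted p under 0.05 and a fold of at least 1.5. Of the other UGT genes 7 filled points lie to the left of 0 and 1, Ugt1a7c, to the right at 4.82, while Abcc4 lies farthest right at 6.51.

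Of 9 transcription factors and partners known to act on UGT genes, 2 were called at 30 μg/kg by edgeR, fewer than the share of all genes (42.1%). Nfe2l2, the factor that acts at antioxidant response elements, rose from 1 μg/kg (0.83) to 30 μg/kg (2.45 ± 0.20). Ppara, the fatty acid receptor, fell to -1.87 ± 0.21. Nr1i3, the constitutive androstane receptor, was called higher at 1 μg/kg (0.72), and Ahr at 10 μg/kg (0.79). Arnt, Hnf4a, Keap1, Nr1i2 and Rxra were not called at any of the doses from 0.3 μg/kg, with values at 30 μg/kg between -0.53 and -0.12. With library totals alone 3 of the 9 regulators were called at 30 μg/kg, 2 of them higher, where 7961 of the 15373 genes tested were called.

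Markers of the cell types of liver were followed over the same doses. Of all genes, 2.78% were called at 1 μg/kg, 6.75% at 3 μg/kg, 21.8% at 10 μg/kg and 42.1% at 30 μg/kg. Of the hepatocyte markers 2 of 6 were called lower at 1 μg/kg and 3 of 6 at 3 μg/kg and at 10 μg/kg. Of the leukocyte markers 3 of 5 were called higher at 1 and 3 μg/kg and 5 of 5 at 10 μg/kg. Of the endothelial and of the stellate and fibroblast markers, 1 of 5 each was called higher at 3 μg/kg. At 10 μg/kg 4 of 5 endothelial markers and 3 of 5 stellate and fibroblast markers were called higher. No cholangiocyte marker was called at 10 μg/kg. The 6 hepatocyte markers (Alb, Apoa1, Ttr, Serpina1a, Cyp2e1 and Cps1) were all called lower at 30 μg/kg, and their summed level was between 103514 and 126316 CPM in vehicle mice and between 29136.5 and 63110.5 CPM at 30 μg/kg. At 10 μg/kg the sum was between 65211 and 106595 CPM. The 5 leukocyte markers were all called higher, with sums of 77.4 to 109 CPM in vehicle mice and 314 to 822 CPM at 30 μg/kg. Of the 5 stellate and fibroblast markers 4 were called higher (139 to 233 and then 478 to 1015 CPM), as were 4 of 5 endothelial markers (106 to 148 and then 193 to 284 CPM), and of the 5 cholangiocyte markers 4 were higher and 1 was lower (37.2 to 48.4 and then 67.5 to 333 CPM). Kidney markers were at or near 0 at 30 μg/kg, where no library exceeded 0.0794 CPM. The summed intestinal markers were at 40.1 to 55.4 CPM in vehicle mice and 40.1 to 125 CPM at 30 μg/kg, with 1 of 2 tested called higher, and the pancreatic markers were at 25.1 to 44.8 and 5.08 to 10.1 CPM, with the 1 tested called lower. The part of cell makeup in the changes of the glucuronidation genes was not tested.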

How the data were processed

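RNA-seq of whole liver was taken from 40 mice, 5 in each of 8 dose groups, which were read from the labels. Per the labels the authors used FastQC 0.11.7, Trimmomatic 0.39 and STAR 2.7.3a; GRCm39 and mm10 are both named as builds, with no role given. The authors deposited raw gene counts for each library in 3 columns, unstranded and 1 for each strand setting, and a table of log2 values normalized across libraries. The 2 strand settings held near equal totals (50.0% to 50.3% on the first), as libraries without strand information do, and the unstranded counts were used. No coordinates of the files were used. Gene models are from GENCODE M21 and promoters from RefSeq, both on GRCm38.

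Counts were filtered with filterByExpr (a minimum count of 10), scaled with TMM and fitted with edgeR 4.0.16 (glmQLFit, glmQLFTest, R 4.3.3), 1 mean per dose, p-values adjusted over the 15373 genes tested. The fold threshold of 1.5 is that of the study, whose own probability model was not used here. The fit was tested on simulated data. Permutation tests were exact and 2-sided (SciPy), with counts offset by 0.5. DESeq2 1.42.0, limma 3.58.1 on the deposited log2 values, other filters, scalings, columns and covariates, and leaving out each mouse were alternatives. Counts of 15.5 to 21.0 M (1e6) a library set the precision, and errors given are between mice. The SE of an edgeR log2 fold change was worked back from that value and its p-value, with the spread estimated over all 40 libraries. The labels give each library its own title number, which falls into 2 runs; nothing names them as batches. Named genes were the 10 members, fixed lists of pathway genes, AhR targets and cell markers, and for each member the 3 genes outside those lists with the highest Spearman's rho. A gene of these lists is not reported here. The members and lists were chosen with earlier results of these data known.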

Additional observations from a re-analysis of the deposited data

Results flagged for a closer look

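In 9 of 88 groups of 5 mice checked, 1 mouse lay far from the other 4 by Dixon's criterion at the 95% level, which chance alone gives in about 1 group in 20. Replicate 1 at 30 μg/kg was high for Ugt2b36, at 351 CPM against 234 CPM for the next mouse, and it is also the mouse that stood apart on the first principal component. At 0.03 μg/kg replicate 5 was low for Ugt2b34 (303 CPM, next 475) and for Ugdh (147 CPM, next 200.4), and replicate 1 was low for Ugt1a6b (22.1 CPM, next 30.2). At 0.1 μg/kg replicate 5, the library with pancreatic genes, was low for Ugt2b1 (569 CPM, next 735), replicate 4 was high for Ugt1a6b (44.1 CPM, next 33.3) and replicate 3 was high for Ugt2b35 (322 CPM, next 280.0). At 0.3 μg/kg replicate 2 was low for both Ugt2b35 (258 CPM, next 355) and Ugt2b5 (900.0 CPM, next 1063).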

How the results depend on the processing

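No paired analysis was possible because the labels give no replicate numbers that the dose groups share; title run was fitted as a covariate instead. Of 648 refitted log2 fold changes of the 10 genes, 608 kept their direction and their side of the threshold. Reversed values belonged to changes that were not called: Ugt1a1 at 30 μg/kg with library totals alone (0.18), and Ugt2b34 at 30 μg/kg in title run 1 alone (-0.14) and without single mice (-0.0398 to 0.129). The number of genes called at 0.03 μg/kg was 1, Ugt1a9, with DESeq2, with no filter on low counts and with title run and order as covariates, for the same contrast counted as a step too, and ranged from 0 to 1 without single mice (1 without vehicle replicate 2). In title run 1 alone the number was 0 at 0.1 μg/kg and 1 at 0.3 μg/kg, and in title run 2 alone it was 1 at 0.3 μg/kg, with fewer mice in each fit. At 30 μg/kg either title run alone called 7 genes, 3 higher and 4 lower, where the main fit had 4 higher and 3 lower. Ugt2b35 was not called at that dose in title run 1 alone (0.54), nor Ugt1a6a in title run 2 alone (0.71). Ugt1a6b was called lower in both. Among steps, library totals alone gave 5 genes from 10 to 30 μg/kg, 3 higher and 2 lower, 1 gene was called from 0.3 to 1 μg/kg with the groups compared alone, 1 from 3 to 10 μg/kg in either title run alone, and 2 from 10 to 30 μg/kg in title run 1 alone. The step from 3 to 10 μg/kg gave 1 to 2 genes without single mice (1 without replicate 3 at 10 μg/kg). Called genes at 30 μg/kg went to 6 of 7 for UDP-glucuronic acid supply and use with library totals alone, and to 4 of 9 for regulators with no fold threshold.

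Ugt1a6b at 30 μg/kg was called with title run as a covariate (-0.59), in title run 1 (-0.74) or 2 (-0.59) alone, and without replicate 3 (-0.60) or 4 (-0.68) at 30 μg/kg. Ugt2b36 at 10 μg/kg missed the fold threshold with library totals alone (-0.39), the filter at a mean of 50 counts (-0.58), the strand-specific column (-0.58), title run 1 alone (-0.49), and without vehicle replicate 3 or replicates 3 or 5 at 10 μg/kg. Ugt1a1 at 3 μg/kg missed it with limma (0.58), either title run alone, and without 5 single mice (vehicle replicates 2, 3 and 4, treated replicates 4 and 5; lowest 0.51). The cause was not tested. The rise of Ugdh from 1 μg/kg, of Ugt1a9 from 0.3 μg/kg, and the fall of Ugt2b1 and Ugt2b36 at 30 μg/kg were called under every alternative run. The shared exon reads kept their direction and call against vehicle at every dose in each alternative that had a test. Their lower level at 30 than at 3 μg/kg was not kept with library totals alone.

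The within-mouse ratio of Ugt1a6a to Ugt2b35 at 30 μg/kg was near 0 and turned sign with the strand-specific column (-0.00916), a pseudocount of 5 (-0.00285) and without single mice (-0.12 to 0.25), and that to Ugt1a1 at 3 μg/kg without vehicle replicate 4 (-0.43 to 0.0799 over single mice). With 4 mice in a group significance was lost (adjusted p above 0.05) in most omissions for Ugt1a1 (0.91 to 1.42), Ugt1a9 (-1.63 to -1.23) and Ugt2b34 (0.72 to 1.01) at 30 μg/kg. Fewer rearrangements exist then, but the other ratios that had passed at 30 μg/kg still passed. Depth limits Ugt1a6a most, since its counts were the lowest of the 10 genes.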
